A study of Mus musculus with 7 samples.

Results

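The regions described here are the stretches of open chromatin that lay at the ends of protein-coding genes and carried a peak in each of 7 mouse ATAC-seq libraries of embryonic face and newborn tooth. They were selected on the peak lists themselves. From each list the 38000 peaks on chromosomes 1 to 19 with the highest −log10 p were taken, peaks of the 7 lists that shared at least 1 bp were merged, and regions were kept if all 7 libraries had a peak in them and their centre was at most 1 kb from an end, upstream or downstream, of a coding gene in RefSeq's annotation of GRCm38. This gave 8664 gene-end regions of 77136 merged regions. Another 6122 regions with a peak in all 7 libraries lay farther from gene ends and are called distal. Of these, 1134 (18.5%) had an annotated start of a coding gene within 1 kb, inside a longer gene model. Distal therefore means away from gene ends, not away from all promoters. Since presence in all 7 lists chose the regions, their number and their presence are descriptions and carry no test.

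ATAC-seq uses a transposase that inserts adapters where DNA is not wrapped in nucleosomes, and the libraries were made with its Omni-ATAC variant. Ectoderm was peeled with Dispase from the first pharyngeal arch, which forms the jaws, at embryonic day 11.5 (2 libraries). Sox2-positive cells were sorted at postnatal day 2 from the labial cervical loop of the lower incisor, in mice whose GFP is driven by the endogenous Sox2 promoter (2 libraries, called sorted cells below). The labial cervical loop is the epithelial pocket that feeds the continuously growing incisor, and Sox2 marks its progenitors. The remaining libraries, 1 per tissue, were made at postnatal day 2 from the whole lower incisor, the lower first molar and the upper first molar, which hold epithelium, mesenchyme, vessels, nerve and blood together. No other genetic change or treatment is given for any group, and nothing in the labels says whether replicates came from separate animals, so their spread may be technical.

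The start of an active gene is held open by a nucleosome-depleted stretch where general transcription factors and RNA polymerase II assemble. Many mammalian promoters lie in CpG islands, stretches of DNA that keep their CG dinucleotides because they stay free of DNA methylation. Genes needed in every cell mostly have such promoters, bound by widely expressed factors such as SP1, NFY, ETS proteins, NRF1 and YY1. Promoters of genes used in a single tissue more often lack an island and may carry a TATA box.

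The 7 lists held 38326 to 80850 peaks on chromosomes 1 to 19, so the 38000 used were 47.0% to 99.1% of a list, and read depth was unknown. Marker genes followed the labels in part. Sox2 itself had a gene-end peak in all 4 libraries of ectoderm and sorted cells and in none of the 3 whole-tooth libraries. Tfap2a, Tfap2b and Foxe1, transcription factors of facial ectoderm, had one in the ectoderm libraries only. Of 13 enamel genes, ectoderm had a gene-end peak at 5 in each library and the postnatal libraries at 3 to 5, so this list did not separate tooth from ectoderm. Its matrix gene Ambn had one in the 5 postnatal libraries only, while Wdr72 and Slc24a4 had one in the ectoderm libraries only. Genes of dental mesenchyme, however, had gene-end peaks in the epithelial preparations too, for 8 and 11 of 19 genes in ectoderm and 10 and 11 in sorted cells, against 10 to 11 in whole teeth. Blood lists had 2 to 3 of 13 genes per library and endothelium 2 to 6 of 13. The part of other cell types in the results below was not tested. Defining genes of blood (Ptprc), endothelium (Pecam1) and Schwann cells (Sox10) had no gene-end peak in any list.

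Sequences shown here are stretches of 120 bases upstream of transcription starts at the highest-ranked gene-end regions that hold each of 9 short motifs, chosen so that the stretch overlaps no annotated gene. They were copied from RefSeq's GRCm38 promoter table, are written 5′ to 3′ on the strand of the gene, and carry the motif, in either orientation, in capitals.
Sox12, GC box, chr2:152398081-152398200, minus strand: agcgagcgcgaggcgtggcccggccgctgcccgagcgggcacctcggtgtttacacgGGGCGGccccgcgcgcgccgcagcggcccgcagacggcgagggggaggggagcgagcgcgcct
Sp4, CCAAT box, chr12:118301527-118301646, minus strand: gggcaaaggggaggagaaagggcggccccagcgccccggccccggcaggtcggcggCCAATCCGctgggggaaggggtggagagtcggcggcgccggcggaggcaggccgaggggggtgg
Tedc1, ETS motif, chr12:113156229-113156348, plus strand: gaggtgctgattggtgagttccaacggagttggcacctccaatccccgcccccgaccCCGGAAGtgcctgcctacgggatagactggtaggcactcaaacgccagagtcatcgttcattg
Thap2, YY1 motif, chr10:115384566-115384685, minus strand: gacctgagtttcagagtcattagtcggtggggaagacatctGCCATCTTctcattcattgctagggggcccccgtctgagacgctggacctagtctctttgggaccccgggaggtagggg
Rab1a, NRF1 motif, chr11:20201192-20201311, plus strand: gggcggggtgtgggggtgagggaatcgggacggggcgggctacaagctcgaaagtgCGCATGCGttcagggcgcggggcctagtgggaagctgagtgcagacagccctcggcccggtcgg
Mlf2, CREB motif, chr6:124931268-124931387, plus strand: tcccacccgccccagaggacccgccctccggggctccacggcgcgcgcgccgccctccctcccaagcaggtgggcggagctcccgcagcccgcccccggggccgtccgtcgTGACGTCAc
Tacc3, palindrome, chr5:33658008-33658127, plus strand: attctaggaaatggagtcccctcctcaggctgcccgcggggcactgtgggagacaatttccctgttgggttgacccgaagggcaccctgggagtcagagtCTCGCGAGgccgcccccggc
Mbd3, TATA box, chr10:80399662-80399781, minus strand: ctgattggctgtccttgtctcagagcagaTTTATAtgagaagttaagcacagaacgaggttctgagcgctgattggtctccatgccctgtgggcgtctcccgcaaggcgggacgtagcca
Six5, AP-1 motif, chr7:19094314-19094433, plus strand: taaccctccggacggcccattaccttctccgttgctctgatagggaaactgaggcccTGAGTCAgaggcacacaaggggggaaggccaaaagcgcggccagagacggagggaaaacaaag

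The Sox12 promoter shows the CG-dense kind of sequence. Its 300-base window from 250 bases before to 50 after the start had 76.7% G and C and 47 CG dinucleotides, 1.07 times the number its base composition gives. Sox12 encodes a transcription factor of the SoxC family. The Sp4 window, of a zinc finger factor that binds GC boxes, had 78.7% G and C and 42 CG dinucleotides. Six5, a homeobox gene, is the sparsest of the 9 with 17 CG dinucleotides, 0.559 of the number its composition gives. The letters mark a match and no more: that of Mbd3, TATAAA read on the other strand, begins at −221 from the start. All of these regions stood near the top of every list. Six5, for example, had percentile ranks of 99.98 and 99.97 in ectoderm, 99.83 and 99.94 in the sorted cells, 99.95 in incisor, 99.94 in lower molar and 99.96 in upper molar. Percentile rank here is the place of a region's strongest peak, by the authors' peak signal, among the 38000 peaks of its library, with 100 the highest.

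Gene-end position and presence in all libraries went together. Of regions found in 1 library only, 5.51% lay at a gene end, and the share stayed between 5.67% and 7.94% for 2 to 5 libraries. It was 21.4% for 6 libraries and 58.6% for all 7 (8664 of 14786, Wilson 95% interval 57.8% to 59.4%, which covers the counting of regions only). Seen from the other side, 66.9% of the 12951 gene-end regions of any kind were in all 7 lists. The gene-end regions had their centres within 1 kb of an end of 9751 of 20665 protein-coding genes, 47.2% of them, and 386 genes had more than 1 such region. For 7776 genes, 37.6%, no library had a peak in a gene-end region.

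**Figure D1:**
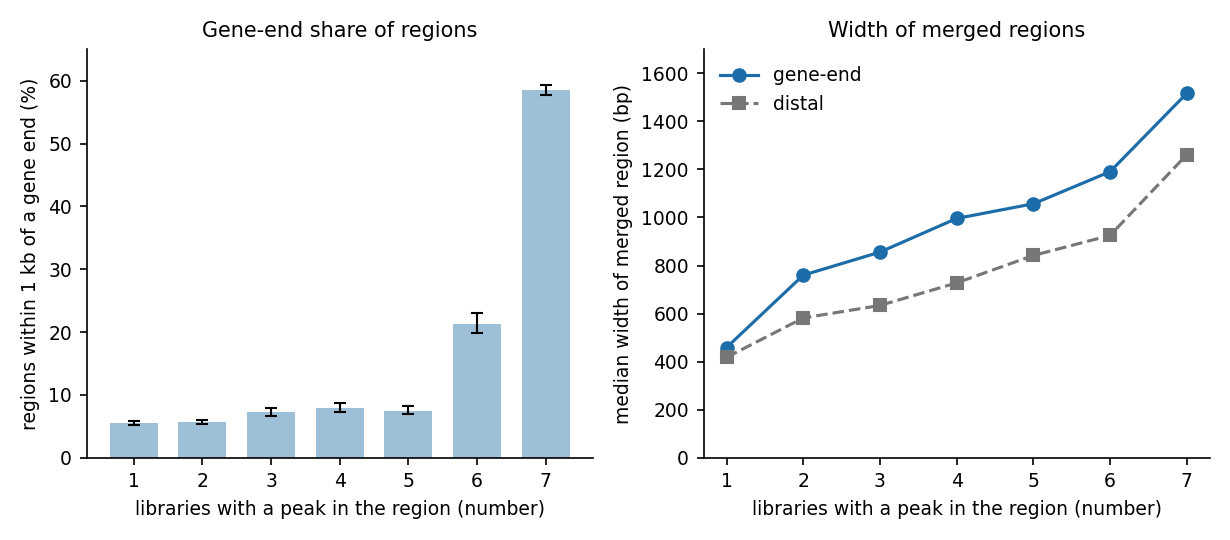
Left, bars give the percent of merged regions whose centre lies within 1 kb of a protein-coding gene end, by the number of libraries with a peak there (whiskers, Wilson 95% intervals). Right, points give the median width of merged regions in bp for gene-end and distal regions. The gene-end share reaches 58.6% in the class of all 7 libraries, and the merged width reaches 1516.5 bp there.

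A further 556 gene-end regions missed a single library. The missing library was the whole incisor for 145 regions, ectoderm replicate 1 for 104, Sox2-positive replicate 1 for 93, Sox2-positive replicate 2 for 67, upper molar for 63, lower molar for 59 and ectoderm replicate 2 for 25. In the deposited list beyond the 38000 peaks used, the incisor had a weaker peak at 133 of its 145, ectoderm replicate 1 at 103 of its 104 lower molar at all 59 and upper molar at 62 of its 63. Sox2-positive replicate 2, whose list ended soonest, had one at 2 of its 67. Just inside the limit on list length, the region of Mapkapk2 entered through place 37995 of the incisor list. Just outside, the region of H2-Aa stopped at place 38011 of the lower molar list. At the limit of distance, Nfib and Dusp7 regions were kept at 1000 bp, and Dgka, Hmces and Nadk regions fell outside at 1001 bp.

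The gene-end regions were mainly transcription starts. By the strands and starts in RefSeq's promoter table, 6890 of all 8664 regions (79.5%) lay at a start and 185 (2.14%) at a downstream end only. The remaining 1589 (18.3%) lay at no start in the table and had a gene end within 1 kb of a gene without a strand there. The median distance from region centre to gene end was 190 bp, and 2456 regions (28.3%) were within 100 bp. Starts of 2 genes on opposite strands shared 679 regions (7.84%). One of these, chr9:13826287-13828683, covers the start of Cep57, a centrosome protein gene, and that of its neighbour Fam76b, and ranked from 99.84 to 99.96 in the 7 libraries. Shared starts had a median mean rank of 89.6 and a median merged width of 1676 bp, against 82.7 and 1526 bp for all start regions. Regions at downstream ends stood lower, with a median mean rank of 59.0 and a median width of 1229 bp. Several of these belong to short genes that one wide region covers from end to end, such as Jund and Junb, which encode AP-1 subunits, and Id3, an inhibitor of basic helix-loop-helix factors. For 6 of the 185 the region covered the start of the same gene as given in the promoter table.

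Peak summits stood just upstream of the start in every library. At 6734 gene-end regions with an annotated start within 1 kb, the median summit lay 41 to 31 bp upstream of the nearest start, and 63.0% to 69.8% of summits were upstream. Between 59.2% and 64.9% of summits were within 100 bp of a start. Different libraries placed the summit close together. The distance between the outermost of the 7 summits had a median of 69 bp at gene-end regions and 80 bp at distal ones, and it was at most 200 bp at 76.6% of the former and 72% of the latter. The 2 molars had a median summit distance of 6 bp, as had the lower molar and the incisor. The nearest start was taken separately for each summit, which draws summits toward starts where a gene has several.

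**Figure D2:**
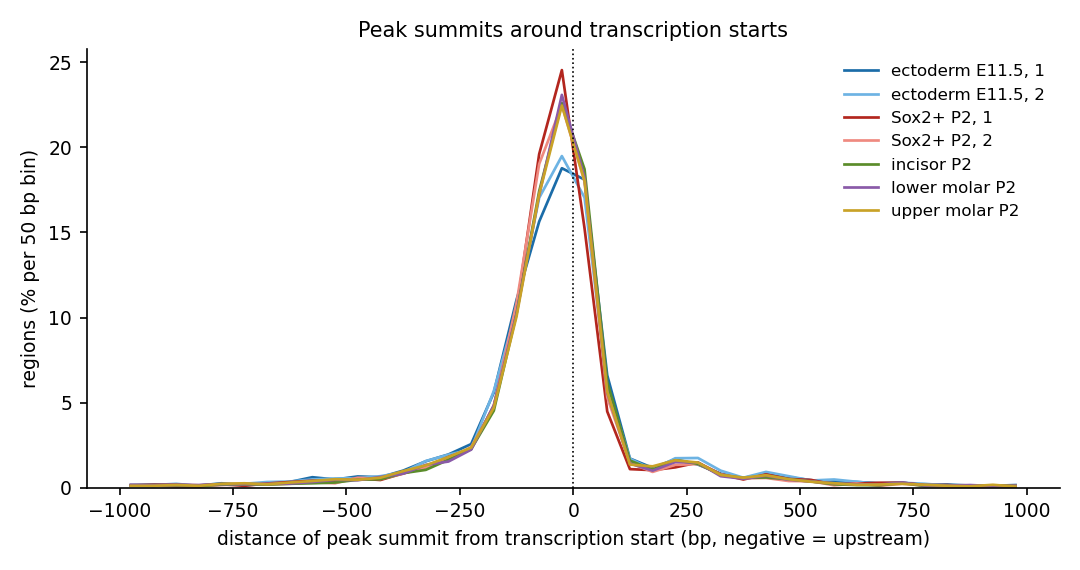
Percent of 6734 gene-end regions in 50 bp bins of the distance between peak summit and nearest annotated transcription start, one line per library, negative values upstream. All 7 lines peak in the bin just upstream of the start, with medians from −41 to −31 bp.

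Gene-end peaks were wider than distal ones in each library. Median width at gene-end regions was 1237 and 1385 bp in ectoderm, 1069 and 1013 bp in the sorted cells, 1156 bp in incisor, 1201 bp in lower molar and 1188 bp in upper molar. At distal regions it was 953.5 and 1044.5, 787 and 700, 844.5, 911 and 925.5 bp in the same order. The mean difference was 298 bp ± 25.8 (SD, n = 7 libraries), above 0 in 7 of 7 libraries (two-sided exact sign-flip permutation test, adjusted p = 0.0156 over 2 tests, the smallest 7 libraries can give). Gene-end regions were also split less often into several peaks. They held more than 1 peak of a library in 2.93% to 8.41% of cases against 4.21% to 10.4% for distal regions, a mean difference of −1.75 percentage points ± 0.681 (SD, n = 7), with 0 of 7 libraries above 0 (same exact permutation test, adjusted p = 0.0156). With a gene-end window of 2.5 kb that difference was −0.540 points (exact permutation test, adjusted p = 0.0625). Libraries of 1 tissue are not independent, so both p-values are smaller than the number of tissues warrants. All 7 differences were also read at the same gene-end and distal regions, chosen from these lists, so the p-values do not measure variation between regions. Gene-end regions ranked higher by signal, with a median mean rank of 81.8 against 64.8, and widths were not compared at equal rank. The 7 peaks at a region had a base in common in 8650 of 8664 gene-end regions, over a median of 881 bp, and in 98.7% of distal regions, over 543 bp.

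Ectoderm peaks were the widest. Their median width at gene-end regions averaged 1311 bp ± 105 (SD, n = 2), and that of the postnatal libraries 1125 bp ± 81.2 (SD, n = 5). The 2 groups did not overlap, and the two-sided exact permutation test gave p = 0.0952, the smallest that 21 splits of 7 libraries allow. Of the ectoderm libraries, replicate 2 had the wider peaks and the shorter list, 49719 peaks against 80850. The order was not particular to gene-end regions, since ectoderm peaks were also the widest at distal regions and over the whole lists. Over all 38000 peaks, median widths were 771 and 795 bp in ectoderm against 552 to 709 bp in the postnatal libraries.

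The gene-end regions held 23.5% to 24.9% of the 38000 peaks of each list. By −log10 p they held 70.9% to 80.1% of the first 1000 and 1.8% to 5.3% of the last 1000, a description only, since the rule used −log10 p and presence in every list favours peaks far up it. By signal, the median of the mean rank, with the 5 groups weighted equally, was 81.8 for gene-end and 64.8 for distal regions. In all 7 libraries 1591 gene-end regions (18.4%) stood above the 90th percentile, as did 396 distal regions (6.47%). Another 143 gene-end regions (1.65%) were below the 50th percentile throughout. The range of a region's rank over the libraries had a median of 12.8 percentile points at gene-end and 29.6 at distal regions, on a scale that leaves ranks near its top less room to vary.

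The highest mean rank belonged to a region of 6381 bp at chr17:34116797-34123177, with ranks of 99.91 and 99.92 in ectoderm, 99.98 and 99.99 in the sorted cells, and 99.99, 99.98 and 99.99 in incisor, lower and upper molar. Its nearest gene end is that of H2-DMa, part of the complex that loads peptides on MHC class II, and it also spans a start of Brd2, a reader of acetylated histones. The next were Gpr108, Sox12, Fam72a, Six5, Rap2b (a small GTPase), Klf10 (a zinc finger factor induced by TGF-β), Gsk3b, Akt1s1 (a subunit of the mTORC1 kinase) and Usp5 (a deubiquitinase). Gsk3b encodes the kinase that marks β-catenin for destruction. Its region of 2506 bp ranked 99.92 and 99.91 in ectoderm, 99.94 and 99.95 in the sorted cells, 99.94 in incisor, 99.92 in lower molar and 99.95 in upper molar, a range of 0.0447 points. The smallest range was 0.0263 points at the shared start of Fam72a and Srgap2.

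At the other end, regions of Zswim7, Lias, Mab21l3, Efhb, Slc37a2 and Oard1 had mean ranks from 8.83 to 11.6. The Zswim7 region was the narrowest of all at 282 bp. Its ranks were 0.0145 and 21.8 in ectoderm, 16.2 and 30.1 in the sorted cells, 0.691 in incisor, 6.36 in lower molar and 3.07 in upper molar, so that replicates of 1 tissue differed as much as tissues did. Merged widths ran up to 6766 bp, with quartiles of 1211 and 1918 bp. The widest region covered the histone genes H2bc7 and H2ac7, where the peak of ectoderm replicate 2 spanned 6766 bp and that of the incisor 2387 bp. The next widest were at Rpl10a, Id3, H2-DMa, Rcor2, Ier2, Pcdh7 and Dbp.

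Genes of basic cell machinery mostly had a region. Among the 9 lists of genes for protein synthesis, energy, RNA and DNA, 82.6% to 94.4% of genes had one, beside 47.2% of all protein-coding genes. Cytosolic ribosomal proteins led with 68 of 72, followed by mitochondrial ribosomal proteins with 71 of 78 and aminoacyl-tRNA synthetases, which charge tRNAs, with 32 of 36. RNA polymerase II and its general factors had 35 of 40, DNA replication 34 of 39, the proteasome 40 of 47, translation initiation 45 of 53, the spliceosome 55 of 65 and the respiratory chain with ATP synthase 76 of 92. Some genes without a region are copies used in single tissues, such as Psma8 and Gtf2a1l of germ cells and Psmb11 of the thymus, which had no gene-end peak in any library. For others the gene model matters. The starts of Rpl22, Rpl19, Rps2, Orc1, Orc4, Rfc1 and Lig1 lay inside a longer gene model and had a region in all 7 libraries there, as did 888 of the 10914 genes without a gene-end region. These gene lists were chosen with earlier results of these data known.

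**Figure D3:**
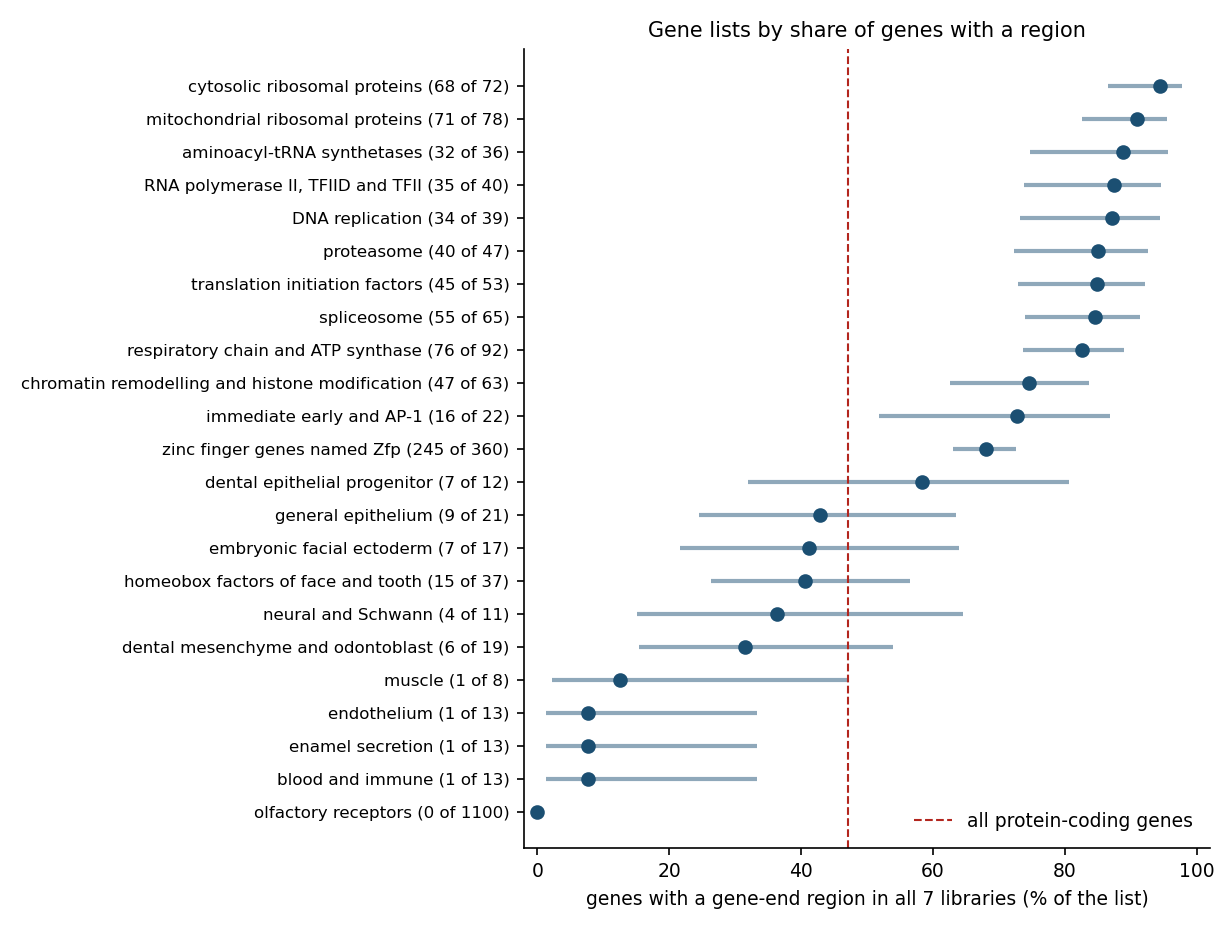
Points give the percent of each gene list with a gene-end region in all 7 libraries (lines, Wilson 95% intervals over genes), with the number of genes in parentheses. The dashed line marks all protein-coding genes, 47.2%. Lists of basic machinery lie at 82.6% to 94.4% and olfactory receptors at 0.

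Signal did not follow this order. Ribosomal protein genes had a median mean rank of 83.3, close to the 82.9 of all genes with a region, and mitochondrial ribosomal proteins 70.8. Rpl7 ranked 98.98 and 98.97 in ectoderm, 98.51 and 98.96 in the sorted cells, and 99.26, 98.95 and 98.91 in incisor, lower and upper molar. Rps28 sat far lower at 49.4, 61.5, 69.6, 62.7, 55.2, 58.3 and 58.7 in the same order. Chromatin regulators had fewer genes with a region, 47 of 63, but a median mean rank of 88.4.

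Immediate early genes, which answer stress and growth signals within minutes, had a region for 16 of 22 genes and the highest median mean rank of the lists with more than 1 gene, 93.5. Jun ranked 99.7 or higher in all 7 libraries, and Jund, Egr1, Myc and Atf4 ranked above 96 in all of them. Fos ranked 92.2 and 96.6 in ectoderm, 91.4 and 91.4 in the sorted cells, 98.1 in incisor, 96.9 in lower molar and 86.5 in upper molar, and its groups overlapped. Fosb was lower, between 57.2 and 67.0. Of the 16 regions, 1 had both Sox2-positive ranks above all 3 whole-tooth ranks (Klf6), beside 23.6% of gene-end regions, and 4 had both below them (Junb, Atf4, Klf4 and Dusp1), beside 10.7%.

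Tissue genes ranged on both sides of the 47.2% of all protein-coding genes. Homeobox factors of face and tooth had 15 of 37 (40.5%), general epithelium 9 of 21 (42.9%) and embryonic facial ectoderm 7 of 17 (41.2%), and the Wilson intervals of all 3 lists cover 47.2%. Dental mesenchyme had 6 of 19 (31.6%). Dental epithelial progenitor genes had 7 of 12 (58.3%), and Sox2 was not among them. Enamel secretion had 1 of 13 (Cnnm4), as had blood (Spi1) and endothelium (Eng). Muscle had 1 of 8 (Ckm) and neural and Schwann genes 4 of 11, the interval of the latter covering 47.2%. None of 1100 olfactory receptor genes had one, which allows a share of up to 0.273%. Genes named Zfp, mostly zinc finger repressors that lie in clusters, had 245 of 360, or 68.1%. The share of genes with a region ran from 38.9% on chromosome 7, which is rich in olfactory receptors, to 55.6% on chromosome 8.

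Promoters at these regions were rich in CG dinucleotides. RefSeq's table gave sequences for 79.6% of protein-coding genes and for 80.9% of those with a region, so the following describes promoters in the table. A promoter was called CpG-rich if its 300-base window had more than 50% G and C and an observed-to-expected CG ratio above 0.6. Of 8558 promoters at gene-end regions, 78.4% were CpG-rich, against 46.2% of all 20085. The share was 7.0% among promoters where no list had a peak, 29.3% where 1 library had one, 45.9% where 4 did, 37.8% where 5 did and 56.7% where 6 did. Put the other way, 72.2% of all CpG-rich promoters and 17.1% of the others lay at a gene-end region in all 7 libraries. CpG-rich promoters at these regions had a median mean rank of 85.4 and the others 77.6.

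**Figure D4:**
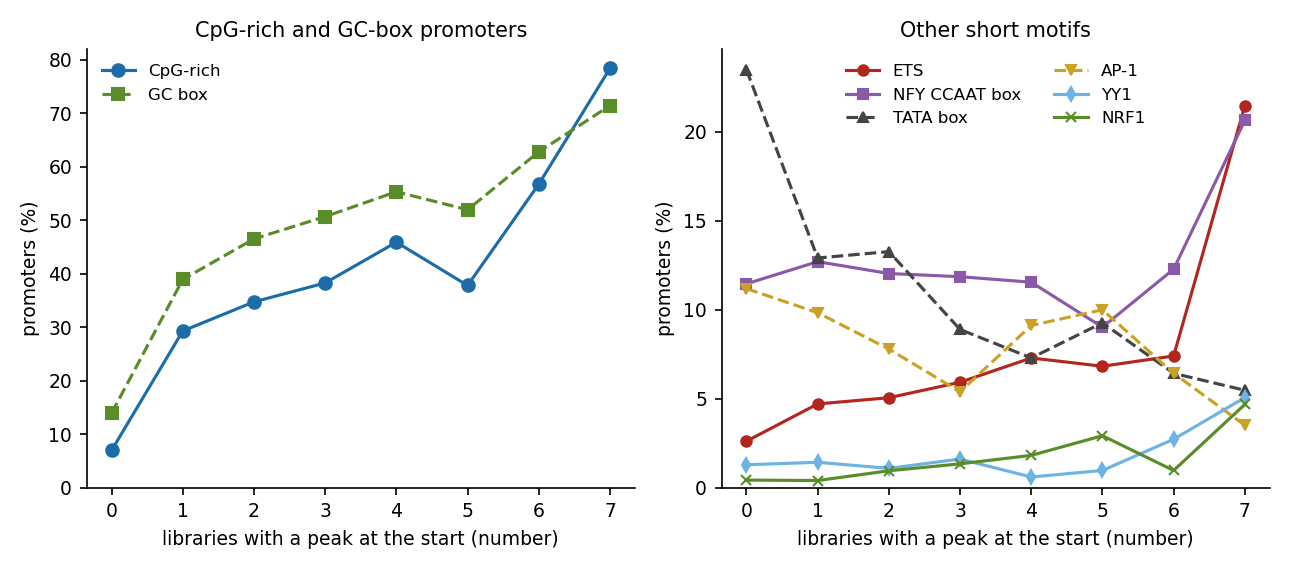
Percent of promoters that are CpG-rich or hold a short motif on either strand of the 300-base window, by the most libraries with a peak within 1 kb of the start; the value at 7 is for gene-end regions. The CpG-rich share runs from 7.0% to 78.4%, while TATAAA runs from 23.5% down to 5.48%.

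Short motifs were searched as exact letters on both strands. The GC box GGGCGG of SP1 and KLF factors was in 71.4% of promoters at gene-end regions and in 47.0% of all promoters. The ETS motif CCGGAAG was in 21.5% against 11.9%, the NFY motif CCAATNNG in 20.6% against 15.8%, the YY1 motif AAGATGGC in 5.07% against 3.06% and the NRF1 motif CGCATGCG in 4.69% against 2.54%. The CREB motif TGACGTCA was in 3.70% against 2.30%, the palindrome CTCGCGAG in 2.26% against 1.21% and the E-box CACGTG in 10.9% against 7.89%. TATAAA went the other way, with 5.48% against 12.7%, as did the AP-1 motif TGANTCA with 3.52% against 7.06%. The CTCF core AGGGGGCGC was in 2.48% against 1.77%, and the RFX motif GTTGCCATG in 0.631% against 0.682%. None of these motifs contains another, though the GC box and the CTCF core share the letters GGGCG.

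CpG-rich promoters were then set against each other. Within that class they were not matched for G and C or for CG dinucleotides, so differences of composition may remain. The GC box was in 77.6% of CpG-rich promoters at gene-end regions and in 75.3% of the 1649 CpG-rich promoters without a region in all 7 libraries. The ETS motif was in 23.6% against 8.31%, the YY1 motif in 5.74% against 1.46%, the NRF1 motif in 5.38% against 2.61% and the NFY motif in 20.5% against 12.1%. The E-box was in 11.8% against 11.9%. The CTCF core turned direction, with 2.94% against 4.73%, and the AP-1 motif, 2.94% against 4.37%, and TATAAA, 4.28% against 5.88%, were lower here too. These are counts of letters, not of bound factors, and promoters of 1 gene share sequence.

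Ranks were next compared between embryonic ectoderm and the 5 postnatal libraries. The postnatal libraries differ from ectoderm in stage, tissue and preparation together, which cannot be told apart. Nor can fewer cells with an open site be told apart from a less open site per cell. Both ectoderm ranks lay above all 5 postnatal ranks at 1827 gene-end regions (21.1%), beside 21.8% of all 14786 regions with a peak in all 7 libraries. Both lay below at 1716 (19.8%), beside 20.8%. Gene-end regions thus separated about as often as regions in general. Without ectoderm replicate 2, the second count was 2844 (32.8%), beside 31.1% of all regions with a peak in all 7 libraries.

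The largest rank differences were at genes of various kinds. Wnt7b, a signalling ligand of embryonic epithelium, ranked 98.0 and 97.3 in ectoderm, 19.7 and 54.3 in the sorted cells, 10.2 in incisor, 19.6 in lower molar and 58.1 in upper molar (chr15:85579940-85583922). Its peak was 3878 and 3848 bp wide in ectoderm and 619 to 2096 bp elsewhere. Adamts18, a secreted protease, ranked 95.4 and 93.0 in ectoderm and 11.2 to 36.2 in the postnatal libraries. Upk2, Pcdh1 (a protocadherin), Slc6a15 (an amino acid transporter), Zfp236, Cntn1 and Adgrv1 completed the 8 largest, and at all 8 the ectoderm ranks were 76.1 or more.

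In the other direction, Krt5, the keratin of basal epithelial cells, ranked 11.3 and 17.5 in ectoderm, 49.98 and 63.1 in the sorted cells, 46.9 in incisor, and 93.8 and 94.8 in lower and upper molar. Pdgfrb, a growth factor receptor of mesenchyme and pericytes, ranked 24.9 and 25.4 in ectoderm, 74.7 and 85.0 in the sorted cells, 92.6 in incisor, 72.6 in lower molar and 70.5 in upper molar. The largest difference was at the downstream end of Kazald1, with 0.522 and 4.03 in ectoderm against 72.8 to 89.6 after birth. The 7 peaks there shared no base, so some libraries were read at separate positions. The whole-tooth peaks spanned all or nearly all of the merged region and so overlapped the much narrower ectoderm peaks. Aak1 was likewise read at its downstream end, and Matn4, Trex1, Rnf157 and Slc12a9 were the others.

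**Figure D5:**
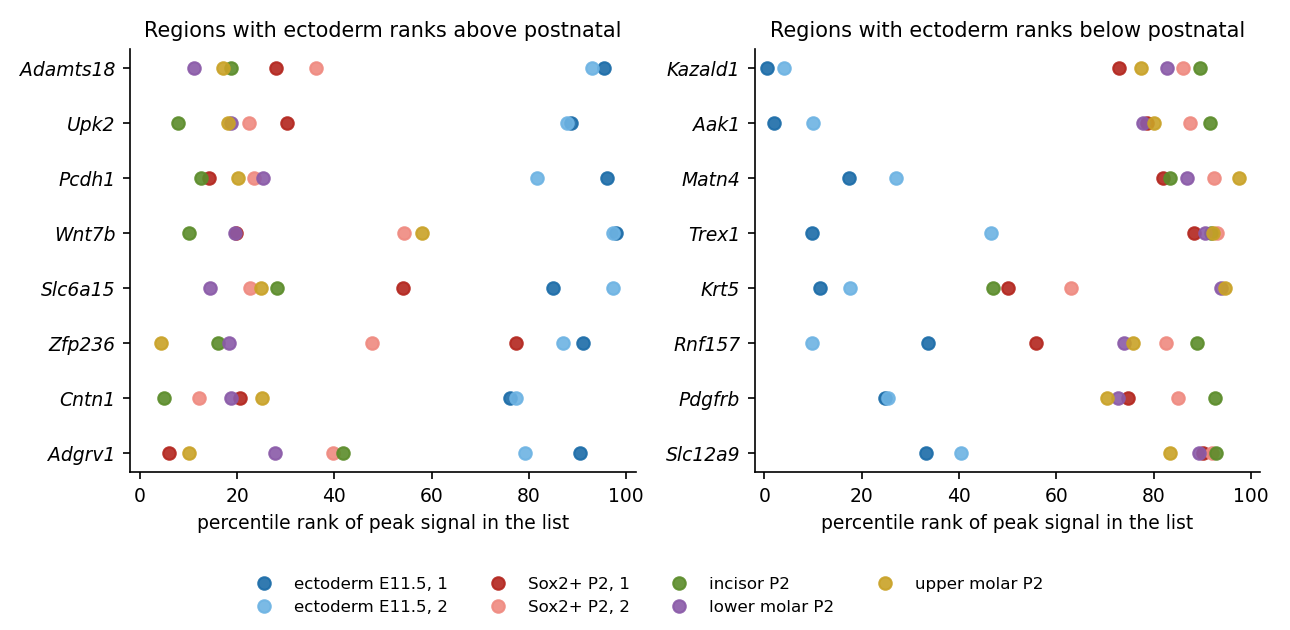
Percentile rank of peak signal in each of the 7 libraries (colours) for the 8 gene-end regions with the largest ectoderm-minus-postnatal difference in each direction. The regions were selected for this separation; ectoderm points lie at 76.1 or higher on the left and at 46.6 or lower on the right.

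Marker lists with few regions are given next, beside the shares of gene-end regions in general. Of the 7 dental epithelial progenitor regions, 6 had both ectoderm ranks above all postnatal ranks, beside 21.1% of gene-end regions in general. Lgr5, a Wnt pathway receptor of stem cells, ranked 92.2 and 89.9 in ectoderm and 34.9 to 72.7 after birth. Igfbp5 ranked 93.7 and 95.8 against 39.7 to 57.4, Lef1, a transcription factor of Wnt signalling, 75.8 and 77.1 against 26.5 to 46.9, and Sox21 93.3 and 96.5 against 32.6 to 72.6. Gli1, a target of hedgehog signalling, was the exception, with 92.8 and 98.8 in ectoderm and 95.6 to 99.7 after birth. In the Sox2-positive libraries, Sox21 was 32.6 and 41.2 and below all 3 whole teeth, and none of the 7 regions stood above them.

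General epithelial genes had 5 of 9 regions above, beside 21.1%, namely Cdh1 (E-cadherin), Dsp (desmoplakin), Perp and the splicing regulators Esrp1 and Esrp2, and 1 below, Krt5. Cdh1 ranked 92.1 and 88.7 in ectoderm, 58.4 and 57.0 in the sorted cells, 57.9 in incisor, 79.5 in lower molar and 75.2 in upper molar. Of the dental mesenchyme genes, 5 of 6 had both ectoderm ranks below, beside 19.8%, namely Col1a2, Msx2, Pdgfrb, Vim and Tnc, and Msx1, a homeobox factor of dental mesenchyme, overlapped. Col1a2, a collagen of connective tissue and dentin, ranked 53.8 and 59.0 in ectoderm, 89.97 and 88.9 in the sorted cells, 88.4 in incisor, 73.6 in lower molar and 72.1 in upper molar. Both ranks in the sorted cells were thus above those of all 3 whole teeth. Bmp4, a signal made first by dental epithelium and then by mesenchyme, ranked 51.0 and 58.7 in ectoderm and 88.4 to 96.8 after birth.

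Homeobox factors went both ways. Isl1 (85.6 and 82.5 against 49.9 to 72.1), Meis1 (96.8 and 96.0 against 58.7 to 90.1), Irx3 and Irx6 had both ectoderm ranks above all postnatal ranks. Dlx2 (84.1 and 81.2 against 93.6 to 97.6) and Msx2 had them below. Irx5 ranked between 96.9 and 99.9 throughout. Cytosolic ribosomal genes had 3 of 68 regions above (4.41%, beside 21.1%) and 15 below (22.1%, beside 19.8%), the second share being near that of all gene-end regions. Without ectoderm replicate 2 the second count was 50 of 68, beside 32.8% of gene-end regions in that setting.

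Among the 12 motifs, the palindrome CTCGCGAG had the most unequal shares by stage, given here with no test. Of 193 such promoters at gene-end regions, 33.2% had both ectoderm ranks below all postnatal ranks and 6.74% had them above, against 20.0% and 20.5% of those without it. For the NRF1 motif the shares were 23.4% below and 13.0% above. CpG-rich promoters had 21.1% below and 18.6% above, and the others 17.1% and 26.1%.

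Sorted Sox2-positive cells were then set against the 3 whole teeth of the same age. Both Sox2-positive ranks were above all 3 whole-tooth ranks at 2044 gene-end regions (23.6%), beside 21.5% of all regions with a peak in all 7 libraries. They were below at 924 (10.7%), beside 11.9%. At distal regions the shares were 18.4% above and 13.7% below. These counts rest on the pair of sorted libraries, since they were 3272 and 2111 without replicate 1 and 4016 and 2316 without replicate 2. The shares above were then 37.8% (beside 34.5% of all regions with a peak in all 7 libraries) and 46.4% (beside 42.6%). The shares below were 24.4% (beside 26.8%) and 26.7% (beside 26.5%). Without the incisor the number below was 1506, or 17.4% beside 22.6%, a wider gap than with all libraries.

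Several lists of basic machinery, among them DNA replication and mitochondrial genes, were above the teeth more often than the 23.6% of gene-end regions in general, with no test. Of 34 DNA replication regions, 17 were above and 0 below. Pcna, the sliding clamp of DNA polymerases, ranked 98.4 and 97.9 in Sox2-positive cells against 94.98, 96.4 and 96.5 in incisor, lower and upper molar. Mcm5, a subunit of the replicative helicase, ranked 94.1 and 91.2 against 82.6, 87.7 and 88.1, and Gins1 85.2 and 72.5 against 66.0, 67.2 and 60.7. Mcm4, Mcm6 and Mcm10 overlapped. The number above was 18 of 34 without Sox2-positive replicate 1, beside 37.8% of gene-end regions in that setting. Without replicate 2 it was 31 of 34, beside 46.4%, so most of these genes also ranked above the teeth in replicate 1 alone. Mitochondrial ribosomal proteins had 32 of 70 regions above, and the respiratory chain 27 of 76. The proteasome had 15 of 40 and aminoacyl-tRNA synthetases 11 of 31, so the higher share was not particular to replication and mitochondrial genes. Cytosolic ribosomal proteins, with 16 of 68 (23.5%), and the spliceosome, with 11 of 55 (20.0%), did not exceed the general share.

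The largest single differences were at other genes. Ache, acetylcholinesterase, ranked 73.3 and 76.9 in Sox2-positive cells against 21.8, 35.4 and 33.2 in the teeth. Angptl4, an inhibitor of lipoprotein lipase, ranked 74.0 and 71.2 against 45.7, 25.03 and 9.57, and Dera, Rab26, Ccdc124 and Zfp236 followed the same order. In the other direction, Cav1, the main protein of caveolae, ranked 35.5 and 30.7 against 66.4, 81.4 and 91.1. Abcg1, a cholesterol transporter, ranked 21.7 and 26.1 against 75.7, 69.2 and 75.7, with Pitpnm2, Mb21d2, Arhgdib and Cdh4 alike. At Arhgdib and Cdh4 the 7 peaks shared no base.

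Similarity of rank over the 8664 gene-end regions is given as a description, since the points share library and position. Spearman's rho was 0.974 between the molars, 0.951 between the ectoderm replicates and 0.758 to 0.852 between an ectoderm and a postnatal library. At distal regions the last range was 0.557 to 0.657. The Sox2-positive replicates had 0.892 with each other, while replicate 2 had 0.945 with the whole incisor, 0.919 with lower molar and 0.906 with upper molar. The sorted libraries were therefore less alike than 1 of them was to unsorted incisor.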

How the data were processed

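ATAC-seq of 7 mouse libraries was used. The deposited files are narrowPeak lists, 1 per library, on mm10 per the submitters' processing notes, which also name FastQC, Trimmomatic, Bowtie2, deepTools and Genrich. Versions, options, read filters and the shift for the transposase are not given in the sources used here. The deposited peak signal is, in this caller, an area under its significance curve, and the deposited significance is a −log10 p. Nothing in the files normalizes either between libraries, and read depth is unknown, so both were used only to choose or rank peaks within equal lists of 38000 peaks. Ties in −log10 p at the limit were broken by signal.

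Lists were merged at 1 bp of overlap. Genes came from RefSeq's GRCm38.p6 table, and strand and promoter sequence from its promoter table. Regions were named by the nearest gene end, passing over Gm and Rik names. Named were the 10 highest and 6 lowest mean ranks, the 8 widest regions, the 6 smallest ranges, the 8 largest ectoderm differences each way and 6 likewise for Sox2-positive cells among regions without overlap, the leading genes of each list, the edges of the rule and the top promoter per motif. Printed promoter stretches were limited to those outside annotated genes after the sequences were seen, and other list genes named in the text were picked after their values were seen. The members, gene lists and motifs were chosen with earlier results of these data known.

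Exact permutation tests ran over libraries (Python 3.11.15, numpy 2.4.6, pandas 2.3.3, scipy 1.17.1; figures with matplotlib 3.10.9). The code for merging, for finding gene ends and for the sign-flip test with its adjustment was tested on simulated data. The ranking, the motif search and the permutation of group labels were not part of that check. Alternatives changed the list length, ranking, overlap, summit windows, gene-end window, gene end, chromosomes and libraries used. Some single genes of the lists are not reported here.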

Additional observations from a re-analysis of the deposited data

Results flagged for a closer look

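Chromosome X was outside the rule, and its peaks entered none of the comparisons above. Over all deposited peaks it had 2127 merged regions. All 7 libraries shared 429 of them, and 271 of these (63.2%) lay within 1 kb of a gene end. They lay within that distance of an end of 292 of 966 protein-coding genes, or 30.2%. It was flagged as signal in data that the report does not use, and no list without such signal was at hand to set it against. No group of 4 or more samples existed for a check on single libraries that stand apart.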

How the results depend on the processing

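The number of gene-end regions stayed between 6484 (50% of the region covered by each library) and 9732 (window of 2.5 kb), and the number of genes between 7488 and 10804. Leaving out each library gave 8698 to 8827 regions and 9776 to 9914 genes. The gene-end share of regions in all libraries was 52.0% with all deposited peaks, 70.8% with the top 20000, 67.6% with 50% covered, 59.6% with 200 bp summit windows, 50.3% and 65.8% with windows of 500 bp and 2.5 kb, 53.2% with starts only, and 56.8% to 58.4% without each library. The width difference stayed above 0 with adjusted p under 0.05 in every alternative that gave one, from 124 bp (top 20000) to 358 bp (all peaks) and 298 to 321 bp without each library, and had no value with summit windows of fixed width. The difference in regions with several peaks was 0 with summit windows (adjusted p = 1), −0.540 points with 2.5 kb (exact permutation test, adjusted p = 0.0625) and −1.68 to −1.17 without each library. Without each library, ectoderm minus postnatal width was 111.6 to 259.6 bp. Added after seeing the data, ranks were also taken among regions in all 7 libraries, giving 1807 above and 1824 below for ectoderm, and 1926 and 970 for Sox2-positive cells. Without each library those counts were 1892 to 2588, 1816 to 2844, 2245 to 4016 and 1073 to 2316. Of 23 gene lists, the share with a region left its interval for 1 with all peaks, 9 with the top 20000 and 7 with 500 bp, while the share of all genes went to 51.0%, 36.8% and 40.5%. The list of dental epithelial progenitor genes left its interval in each of these settings. The cause was not tested. No paired analysis was possible because the shared replicate numbers of ectoderm and Sox2-positive libraries name samples of different ages and tissues and mark no common animal or batch, and the rank comparisons carry no test.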
